A study of Homo sapiens with 8 samples.

Results

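Belinostat is a hydroxamate that blocks the zinc-dependent histone deacetylases, the enzymes that take acetyl groups off histone tails and many other proteins. The comparison described here set 2 RNA-seq libraries of U87 cells given belinostat against 2 libraries of U87 cells given DMSO, the solvent, which are 4 of the 8 libraries of the study. U87 is an established human glioblastoma line, and every result below comes from this line alone, cultured in DMEM with serum. Belinostat was given at 1 µM for 24 h, and the labels list AsiDNA, a short double-stranded DNA that imitates broken ends, only for the other 4 libraries, alone or with belinostat. The labels give the belinostat group the treatment Belinostat and the control group the treatment DMSO. Their treatment protocol names the cells MTU87 and LTAU87 without saying which libraries came from which. The labels do not say that the replicates came from separate cultures, so p-values measure the spread between these libraries, which may be technical.

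Lysine acetylation by acetyltransferases and its removal by deacetylases together set how open chromatin is, and acetylated histone tails are read by bromodomain proteins. Inhibitors of these enzymes are known to raise and lower the RNA of large numbers of genes, in many cell types, and to slow cell division. Glioblastoma cells are known to divide without the normal brake at the start of the cell cycle, to lay down a matrix of their own and to carry a partly neural and partly mesenchymal set of transcripts.

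The belinostat libraries held 8842228 and 6057394 counted reads, and the DMSO libraries held 9699637 and 9220207. Of 58884 genes in the table, 14741 passed the filter on low counts and were tested, and 6275 of these were not called in either direction. Levels below are counts per 1000000 reads (CPM) after scaling by trimmed mean of M values, with replicate 1 before replicate 2 in each group. Among 8172 genes with a mean above a log2 CPM of 4, the belinostat replicates differed by more than 1.5-fold for 0.771% and the DMSO replicates for 11.7%. Because the DMSO libraries differed from each other more than the belinostat libraries did, results are also given against DMSO replicate 1 alone and DMSO replicate 2 alone. Each of those comparisons assumes that a lone DMSO library varies like the other groups, whose spread the model pools.

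The markers fitted the labelled brain tumour line only in part. The mesenchymal markers CD44 and FN1 were abundant in all 4 libraries. The summed level of the 8 mesenchymal markers was 38900 and 33600 CPM in the belinostat libraries, against 24000 and 20700 CPM in the DMSO libraries. FN1 alone made up most of each of these sums. Of the 7 tested mesenchymal markers, FN1 (1.17 on the log2 scale) and COL5A1 (0.58) were called higher. VIM (-1.66) and COL1A2 (-0.49) were called lower, so the sums do not show a rise of these markers as a set. Of 7 astrocyte markers only SLC1A3, GLUL and GJA1 passed the filter, and GFAP had 0 reads in both belinostat libraries, against 3 and 5 reads in the DMSO libraries. SOX2, MOG, MAG, SOX10, OLIG1, PTPRC, CD3E, LYZ, CDH5 and CLDN5 had no read in any of the 4 libraries. The endothelial marker PECAM1 had 20.7 and 19 CPM in the belinostat libraries, against 5.05 and 4.97 CPM in the DMSO libraries (log2 fold change 1.98, SE 0.23, adjusted p = 9.75e-06), and the 5 endothelial markers summed to 25.7 and 22.5 CPM with belinostat, against 10.5 and 8.77 CPM with DMSO. The other tested endothelial marker, KDR, was not called (-0.82 on the log2 scale). The part of the endothelial markers in the results below was not tested. Leukocyte markers summed to at most 3.22 CPM and epithelial markers to at most 2.23 CPM in any library.

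With belinostat, 4395 genes (29.8% of those tested) were higher and 4071 (27.6%) were lower than with DMSO at an adjusted p under 0.05 in edgeR's quasi-likelihood test, so that 57.4% were called in either direction. Against DMSO replicate 1 alone, 5153 genes (35%) were higher and 4701 (31.9%) lower. Against DMSO replicate 2 alone, 4506 (30.6%) were higher and 4074 (27.6%) lower. In all 3 of these fits, 3759 genes (25.5%) were higher and 3492 (23.7%) lower, and no gene called with both DMSO libraries together was called in the opposite direction against either DMSO library. Changes of at least 2-fold numbered 2578 higher (17.5%) and 1892 lower (12.8%). The median log2 fold change over all tested genes was 0.06, and the median size of a change was 0.66 on the log2 scale whatever its direction. Both belinostat libraries lay above both DMSO libraries for 6013 genes (40.8%) and below both for 5276 (35.8%). Every share of a gene list given below is to be read against these shares. That does not hold for counts with a belinostat library left out, since fewer of all tested genes were then called in each direction.

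**Figure D1:**
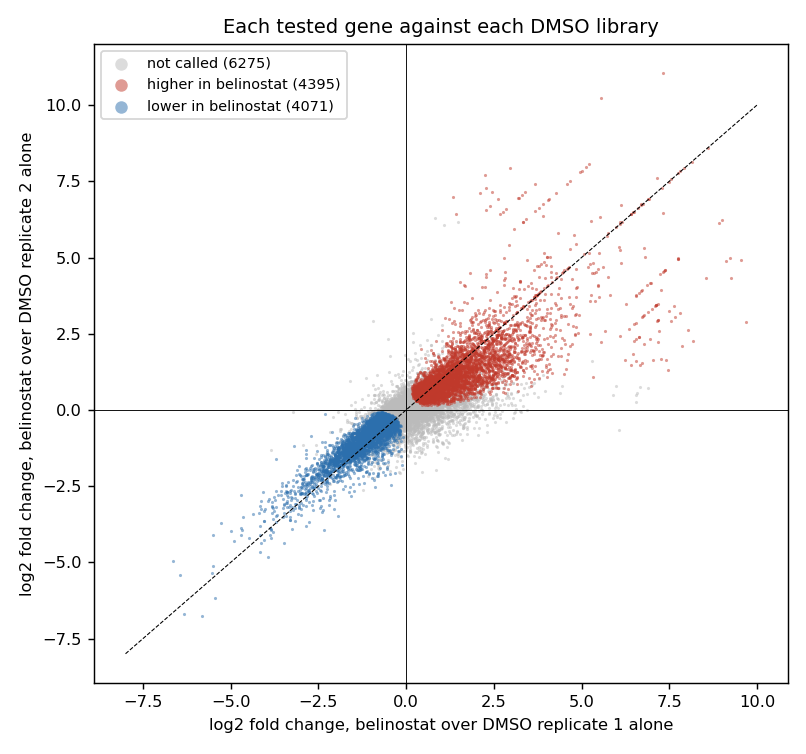
Log2 fold change of each of the 14741 tested genes, belinostat over DMSO replicate 1 alone (horizontal) and over DMSO replicate 2 alone (vertical). Points called higher (4395) sit in the upper right and points called lower (4071) in the lower left, around the dashed line of equal change, while 6275 grey points were not called.

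The genes that rose most by the rule for naming genes (called in all 3 fits, with a mean log2 CPM of at least 2) included genes for a synaptic vesicle protein, an ion channel and a solute carrier. The rule also required both belinostat libraries to lie beyond both DMSO libraries, so the groups of these genes could not overlap. Synaptophysin (SYP; chromosome X, 49187804 to 49200259), a protein of the synaptic vesicle membrane, had 54.6 and 51 CPM in the belinostat libraries, against 1.41 and 1.46 CPM in the DMSO libraries. The log2 fold change was 5.18 (SE 0.20, adjusted p = 2.16e-09), and it was 5.21 against DMSO replicate 1 alone and 5.16 against DMSO replicate 2 alone. CACNA1G, a T-type voltage-gated calcium channel, had 25.9 and 18.3 CPM in the belinostat libraries, against 0.303 and 0.78 CPM in the DMSO libraries (log2 fold change 5.31, SE 0.36, adjusted p = 1.16e-07). Both DMSO libraries held few reads of it (221 and 108 reads in the belinostat libraries, against 3 and 8 reads in the DMSO libraries), and the change was 6.13 against DMSO replicate 1 alone and 4.82 against DMSO replicate 2 alone. The GABA transaminase ABAT had 20.6 and 14.2 CPM with belinostat, against 0.909 and 0.78 CPM with DMSO (log2 fold change 4.36, SE 0.31, adjusted p = 1.85e-07), and the protease inhibitor neuroserpin (SERPINI1) had 20.9 and 17.6 CPM with belinostat, against 1.11 and 0.585 CPM with DMSO (log2 fold change 4.49, SE 0.33, adjusted p = 2.20e-07). SLC12A8, a solute carrier of the cation-chloride cotransporter family, had 174 and 117 CPM with belinostat, against 6.46 and 6.14 CPM with DMSO (log2 fold change 4.53, SE 0.22, adjusted p = 1.13e-08). VSIR, an immune checkpoint protein, had 26.5 and 27.9 CPM with belinostat, against 0.707 and 0.975 CPM with DMSO (log2 fold change 4.99, SE 0.26, adjusted p = 1.94e-08). CACNA1G, ABAT, SERPINI1 and VSIR had at most 1.11 CPM in either DMSO library, so the sizes of their changes rest on few DMSO reads. Such genes may have passed the filter on low counts only because they were high with belinostat. Of the 1446 tested genes that passed only through libraries with belinostat, 827 were called higher and 0 lower. A call higher therefore says little for a gene of that kind.

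Among the genes that fell most, outside the histone genes, were a secreted growth factor, a noncoding transcript and a zinc finger gene. CSF3, the granulocyte colony-stimulating factor, had 21.5 and 23.9 CPM in the belinostat libraries, against 375 and 285 CPM in the DMSO libraries. Its log2 fold change was -3.87 (SE 0.17, adjusted p = 3.82e-09), and it was -4.05 against DMSO replicate 1 alone and -3.66 against DMSO replicate 2 alone. ZNF804A, a zinc finger gene, had 1.17 and 0.677 CPM with belinostat, against 14.3 and 16.8 CPM with DMSO (log2 fold change -3.99, SE 0.32, adjusted p = 4.05e-07). RPSAP52, annotated as a pseudogene that lies antisense to HMGA2, had 3.52 and 4.57 CPM with belinostat, against 69.9 and 81.3 CPM with DMSO (log2 fold change -4.24, SE 0.21, adjusted p = 1.82e-08). Reads of RPSAP52 and HMGA2 cannot be told apart where the genes overlap, since the strand setting of the counting is not given in the sources used here.

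Ranking by CPM gained or lost instead brought up abundant transcripts. After MALAT1 and NEAT1 the largest gain was fibronectin (FN1), the main adhesive glycoprotein of the matrix, with 33189 and 27767 CPM in the belinostat libraries, against 14031 and 13021 CPM in the DMSO libraries (log2 fold change 1.17, SE 0.17, adjusted p = 5.24e-05). PLOD2, the lysyl hydroxylase that prepares collagen for crosslinking, had 7491 and 6860.3 CPM with belinostat, against 1899.5 and 1593 CPM with DMSO (log2 fold change 2.04, SE 0.15, adjusted p = 2.17e-07). AKR1B1, aldose reductase, had 3484 and 3274 CPM with belinostat, against 844 and 581 CPM with DMSO (log2 fold change 2.25, SE 0.17, adjusted p = 2.70e-07). TFPI2, a serine protease inhibitor of the matrix, rose by 1.47 on the log2 scale, ERRFI1, a feedback inhibitor of the EGF receptor, by 1.37, and the transglutaminase TGM2 by 1.94. The largest loss was vimentin (VIM), the intermediate filament protein of mesenchymal cells, with 1478 and 1372 CPM in the belinostat libraries, against 5520.2 and 3488 CPM in the DMSO libraries. The DMSO libraries differed from each other here, yet both exceeded the belinostat libraries (log2 fold change -1.66, SE 0.19, adjusted p = 7.72e-06), with a change of -1.95 against DMSO replicate 1 alone and -1.29 against DMSO replicate 2 alone. The scaffold protein AHNAK changed by -1.53 ± 0.14 (log2 fold change ± SE, as in all values written so below), the microfibril protein fibrillin (FBN1) by -2.33 ± 0.13, and cytoplasmic actin (ACTB) by -1.55 ± 0.19. FN1 rose and VIM fell although both are mesenchymal markers.

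**Figure D2:**
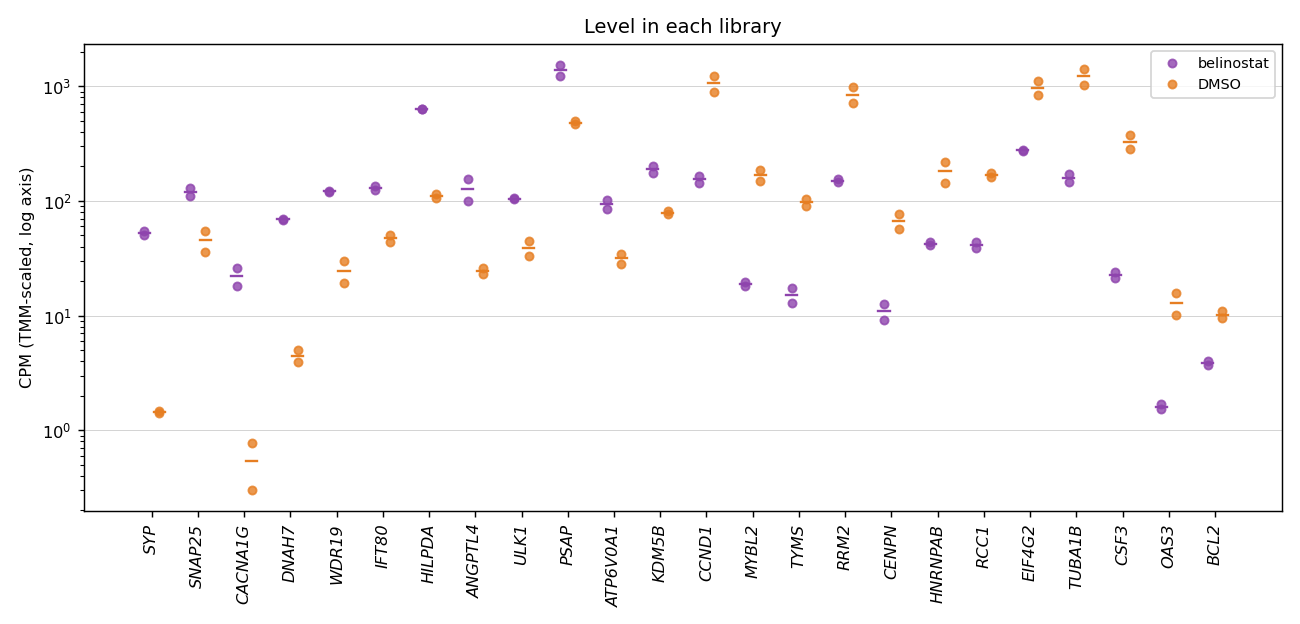
CPM (log axis) of 24 named genes in each library, belinostat (purple) left of DMSO (orange) for every gene. Points are the 2 libraries of a group and the short line is their mean. For each gene shown, the 2 belinostat points lie wholly above or wholly below the 2 DMSO points. Genes were named largely by the size or adjusted p of their change, which favours such separation. Over all tested genes the belinostat points lay above for 40.8% and below for 35.8%.

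Genes of cell division fell in large numbers: of 51 tested genes of G2 and mitosis 51 fell, with a median of -1.51, and of 53 of the replication origin and fork 42 fell and 2 rose (1 when either belinostat library was left out), with a median of -0.89. In bulk samples fewer dividing cells and less of these RNAs in each cell cannot be told apart. Genes of G2 and mitosis are known to be held down by a repressor complex at promoter elements called CHR (here TTTGAA or TTTAAA on either strand), often beside CCAAT elements. Genes of replication are known to carry E2F sites (here TTTCGCG or TTTGGCG, with TTCCCGC as a further form, on either strand). Promoters were taken from RefSeq (GRCh38.p14), 250 bases before to 50 bases after the start, and 10455 of the tested genes had one. The letters of CHR were found in 16.1% of these promoters, those of E2F in 14.9% and CCAAT in 37.4%. Among 44 promoters of the G2 and mitosis list, 81.8% held CHR and 84.1% CCAAT. Of 45 promoters of the replication list, 64.4% held E2F and 4.44% CHR. Promoters of 4 genes that fell are shown because each holds such letters, with the matches in capitals. CCNB1 is cyclin B1, which drives entry into mitosis, MCM10 helps start the replication fork, E2F1 is itself an E2F factor and TYMS makes thymidylate for DNA. Capitals mark CHR and CCAAT in CCNB1, and E2F alone in MCM10, E2F1 and TYMS.
CCNB1 (chr5:69166900-69167199, plus strand): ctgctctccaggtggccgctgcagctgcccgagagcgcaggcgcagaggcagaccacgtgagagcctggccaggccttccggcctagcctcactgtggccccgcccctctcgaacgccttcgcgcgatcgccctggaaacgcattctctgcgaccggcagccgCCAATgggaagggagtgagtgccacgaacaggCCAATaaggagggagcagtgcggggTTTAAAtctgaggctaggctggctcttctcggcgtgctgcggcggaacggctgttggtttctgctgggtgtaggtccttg
MCM10 (chr10:13161308-13161607, plus strand): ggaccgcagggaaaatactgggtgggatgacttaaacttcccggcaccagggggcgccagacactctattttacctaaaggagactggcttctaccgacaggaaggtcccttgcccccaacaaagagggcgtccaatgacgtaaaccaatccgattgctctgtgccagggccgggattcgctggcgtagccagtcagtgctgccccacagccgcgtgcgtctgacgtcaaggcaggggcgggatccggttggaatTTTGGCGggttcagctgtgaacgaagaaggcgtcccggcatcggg
E2F1 (chr20:33686336-33686635, minus strand): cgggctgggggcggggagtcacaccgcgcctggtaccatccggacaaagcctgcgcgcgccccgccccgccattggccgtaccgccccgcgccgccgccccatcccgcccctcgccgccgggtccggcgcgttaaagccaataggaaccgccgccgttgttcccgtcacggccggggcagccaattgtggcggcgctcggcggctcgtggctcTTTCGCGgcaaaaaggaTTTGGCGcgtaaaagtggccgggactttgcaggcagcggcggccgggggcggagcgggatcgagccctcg
TYMS (chr18:657403-657702, plus strand): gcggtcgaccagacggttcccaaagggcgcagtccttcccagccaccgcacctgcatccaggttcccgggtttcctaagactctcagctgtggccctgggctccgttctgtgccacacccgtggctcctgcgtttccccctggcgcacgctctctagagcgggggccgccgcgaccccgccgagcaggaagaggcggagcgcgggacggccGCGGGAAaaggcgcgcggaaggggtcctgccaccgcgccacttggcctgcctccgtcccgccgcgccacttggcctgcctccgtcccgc

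Over all 10455 promoters the letters went with a modest shift. Of 1559 genes with E2F letters, 589 (37.8%) were lower and 363 (23.3%) higher, against 29.4% lower and 29.8% higher of the 8896 without them. With CHR letters 35.4% of 1682 genes were lower and 26.5% higher, against 29.8% lower and 29.3% higher of the 8773 without. The median log2 fold change was -0.20 with E2F letters and 0.03 without, and it was -0.22 against DMSO replicate 1 alone and -0.14 against DMSO replicate 2 alone for the genes with them. CCAAT, the E-box CACGTG, the GC box GGGCGG and the AP-1 letters TGANTCA came with 30.7%, 32.2%, 31.3% and 30.9% of genes lower, against 30.7%, 30.5%, 29.3% and 30.7% without. A match is a string of letters, not a bound site.

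CCNB1 had 56 and 57.6 CPM in the belinostat libraries, against 374 and 292 CPM in the DMSO libraries (log2 fold change -2.55, SE 0.16, adjusted p = 5.92e-08). MCM10 had 22.4 and 24.4 CPM with belinostat, against 94.2 and 84.9 CPM with DMSO (log2 fold change -1.94, SE 0.14, adjusted p = 1.50e-07). For both genes, as for 35.8% of all tested genes, both belinostat libraries lay below both DMSO libraries. E2F1 had 40.9 and 46.9 CPM with belinostat, against 167 and 159.7 CPM with DMSO (log2 fold change -1.90, SE 0.13, adjusted p = 1.18e-07), with a change of -1.94 against DMSO replicate 1 alone and -1.87 against DMSO replicate 2 alone. The G1 and RB-E2F list, which holds the cyclins, kinases and inhibitors that control entry into S phase, had 33 tested members, of which 21 fell and 5 rose. Their median was -0.97. Against DMSO replicate 1 alone 23 were lower and 5 higher, and against DMSO replicate 2 alone 21 and 6. Cyclin D1 (CCND1; chromosome 11, 69641087 to 69654474), which opens G1 with CDK4 and CDK6, had 143 and 165 CPM in the belinostat libraries, against 1226 and 891 CPM in the DMSO libraries. Its log2 fold change was -2.78 (SE 0.16, adjusted p = 4.13e-08). MYBL2, a subunit of the activating complex of the late cell cycle, had 19.8 and 18.1 CPM with belinostat, against 186 and 149 CPM with DMSO (log2 fold change -3.14, SE 0.19, adjusted p = 5.51e-08), and FOXM1, which drives mitotic genes with it, changed by -2.77 ± 0.18. E2F2 changed by -2.53 ± 0.16 and TFDP1, the dimer partner of E2F factors, by -2.12 ± 0.12. Among the members that rose, RBL2, a pocket protein of the repressor complex, had 242 and 260.5 CPM with belinostat, against 127 and 151 CPM with DMSO (log2 fold change 0.85, SE 0.12, adjusted p = 5.85e-05), its partner E2F4 changed by 0.62 ± 0.12 and MYBL1 by 0.81 ± 0.12.

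Kinetochore genes, whose proteins join chromosomes to the spindle, fell in 28 of 36 cases and rose in 2, with a median of -1.03 (-1.09 against DMSO replicate 1 alone and -0.89 against DMSO replicate 2 alone). CENPN, which reads the centromeric nucleosome, had 9.15 and 12.7 CPM in the belinostat libraries, against 77.6 and 57.3 CPM in the DMSO libraries (log2 fold change -2.65, SE 0.19, adjusted p = 2.03e-07). SPC25 of the NDC80 complex changed by -2.60 ± 0.21, ZWINT by -2.12 ± 0.16, and KNL1, a scaffold for checkpoint proteins, by -1.66 ± 0.13. Those that rose were CENPT, a DNA-binding member, at 0.82 ± 0.21, and CENPX at 0.52 ± 0.16, and both calls were lost when either belinostat library was left out. Cohesin and condensin, the rings that hold and fold chromosomes, had 16 of 23 members lower and 0 higher (2 higher against DMSO replicate 1 alone). In that list CDCA5 (sororin) changed by -2.16 ± 0.16, NCAPH by -1.81 ± 0.13 and STAG1 by -1.63 ± 0.13.

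Nucleotide synthesis fell almost as a whole. Of 28 tested genes of purine and pyrimidine synthesis, 27 fell (96.4%) and 1 rose, and the list's median was -1.14 on the log2 scale. Against DMSO replicate 1 alone 27 were lower, and against DMSO replicate 2 alone 26. Thymidylate synthase (TYMS) had 12.9 and 17.3 CPM in the belinostat libraries, against 103 and 90.9 CPM in the DMSO libraries (log2 fold change -2.70, SE 0.19, adjusted p = 1.30e-07), with a change of -2.80 against DMSO replicate 1 alone and -2.62 against DMSO replicate 2 alone. RRM2, the small subunit of ribonucleotide reductase, had 147 and 154 CPM with belinostat, against 977 and 708 CPM with DMSO (log2 fold change -2.49, SE 0.16, adjusted p = 7.53e-08), and RRM1, the large subunit, changed by -1.62 ± 0.15. CTP synthase (CTPS1) had 35.9 and 34.9 CPM with belinostat, against 132 and 158 CPM with DMSO (log2 fold change -2.03, SE 0.13, adjusted p = 9.09e-08). Thymidylate kinase (DTYMK) changed by -1.76 ± 0.14. The list was not limited to enzymes of DNA precursors: CAD, which starts pyrimidine synthesis, changed by -1.30 ± 0.15, and GART and PAICS of the purine pathway by -1.14 ± 0.12 and -0.99 ± 0.14. The exception was ADSS1, an adenylosuccinate synthase known as the muscle form, with 8.92 and 9.99 CPM with belinostat, against 2.42 and 6.92 CPM with DMSO (log2 fold change 1.00, SE 0.37, adjusted p = 0.033), and its call did not hold against DMSO replicate 2 alone or when either belinostat library was left out.

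Some groups of nuclear RNA-binding proteins fell and others did not. Of 28 tested hnRNP proteins, which coat nascent RNA and steer its splicing, 0 rose and 23 fell (82.1%), with a median of -0.67 (-0.59 and -0.63 against DMSO replicates 1 and 2 alone), and 1 was higher against either DMSO library alone. HNRNPAB had 41.3 and 43.5 CPM in the belinostat libraries, against 219.9 and 144 CPM in the DMSO libraries (log2 fold change -2.10, SE 0.19, adjusted p = 1.04e-06). HNRNPUL1 had 108 and 105 CPM with belinostat, against 272 and 225 CPM with DMSO (log2 fold change -1.22, SE 0.13, adjusted p = 3.81e-06), and HNRNPA1 changed by -1.01 ± 0.12. The hnRNP genes have processed copies in the genome, so the division of reads among copies is uncertain. The core spliceosome list had 20 of 40 members lower and 3 higher. SF3B1, a branch-site factor that rose, had 743 and 815 CPM with belinostat, against 362 and 391 CPM with DMSO (log2 fold change 1.05, SE 0.12, adjusted p = 8.80e-06). SR proteins, which promote exon use, were divided, with 7 of 21 higher and 7 lower, and their median was 0.18. Of 32 RNA-binding motif proteins 8 rose (3 without belinostat replicate 1 and 13 without DMSO replicate 2) and 7 fell (11 without DMSO replicate 2). The count of SR proteins higher was 13 against DMSO replicate 1 alone and 4 when either belinostat library was left out, and that of core spliceosome genes higher was 1 when either belinostat library was left out and 5 against either DMSO library alone.

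Of 34 tested genes of the nuclear pore and the RAN cycle, which carry RNA and protein across the nuclear envelope, 24 fell (70.6%) and 1 rose (2 against DMSO replicate 1 alone). RCC1, the exchange factor that charges RAN, had 44 and 38.6 CPM in the belinostat libraries, against 174 and 162 CPM in the DMSO libraries (log2 fold change -2.02, SE 0.13, adjusted p = 6.85e-08). RAN itself changed by -1.57 ± 0.14 and the importin KPNA2 by -1.77 ± 0.14. The pore proteins SEH1L and NUP188 changed by -1.83 ± 0.16 and -1.27 ± 0.12. The gene that rose was AAAS (aladin), a pore protein, which had 117 and 117 CPM with belinostat, against 33.2 and 38.2 CPM with DMSO, with a change of 1.81 against DMSO replicate 1 alone and 1.61 against DMSO replicate 2 alone. Among 23 exportin and importin genes 14 fell and 2 rose (1 without DMSO replicate 1 or either belinostat library and 3 without DMSO replicate 2), and IPO13, a carrier that moves cargo both ways, had 259 and 249 CPM with belinostat, against 82.4 and 93 CPM with DMSO (log2 fold change 1.54, SE 0.12, adjusted p = 3.46e-07).

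Translation factors fell in 29 of 47 cases and rose in 1 (2 and 3 against DMSO replicates 1 and 2 alone), with a median of -0.54 (-0.68 against DMSO replicate 1 alone and -0.42 against DMSO replicate 2 alone). EIF4G2, a scaffold of cap-independent initiation, had 274 and 278 CPM in the belinostat libraries, against 1115 and 836 CPM in the DMSO libraries (log2 fold change -1.82, SE 0.15, adjusted p = 3.98e-07). EIF5, which triggers start codon choice, changed by -1.28 ± 0.12. EEF1A1, the factor that brings charged tRNA to the ribosome and a gene with many pseudogenes, had 861 and 891 CPM with belinostat, against 2254 and 1751 CPM with DMSO. The list together held 0.744% and 0.712% of the belinostat libraries' reads, against 1.41% and 1.28% of the DMSO libraries' reads. Cytosolic chaperones and the chaperonin, which fold new proteins, had 22 of 31 members lower and 3 higher. The mitochondrial chaperonin HSPD1 changed by -1.47 ± 0.15 and the CCT subunit CCT5 by -1.25 ± 0.13, while CDC37, which hands kinases to HSP90, had 385 and 380.4 CPM with belinostat, against 144 and 143 CPM with DMSO (log2 fold change 1.41, SE 0.12, adjusted p = 4.96e-07). The aminoacyl-tRNA synthetases that rose were CARS1 (0.71 ± 0.14) and RARS1 (0.57 ± 0.14), against 11 of 23 that fell. Targets of ATF4, the factor of the amino acid response, fell in 14 of 24 cases, with CEBPG at -2.03 ± 0.18 and ATF5 at -2.88 ± 0.29. The 4 that rose included DDIT3 (CHOP), at 1.24 ± 0.21, and DDIT4, an inhibitor of mTOR signalling, at 0.87 ± 0.14, and 2 were higher when either belinostat library was left out. The translation factor that rose, EIF4G3, was not called when either belinostat library was left out.

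**Figure D3:**
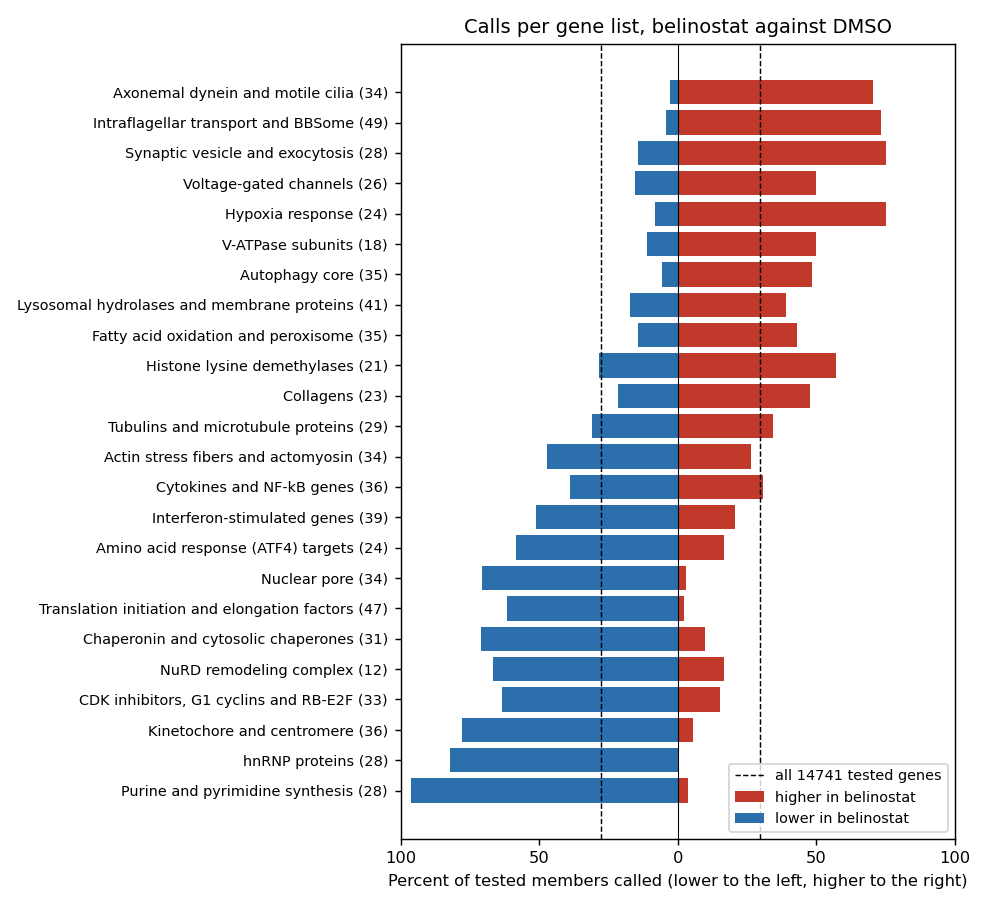
Share of the tested members of 24 gene lists called higher (red, to the right) and lower (blue, to the left) with belinostat against DMSO. The number of tested members is in brackets and dashed lines mark the shares over all tested genes (29.8% higher, 27.6% lower). Nucleotide synthesis reaches 96.4% lower at the bottom, and synaptic vesicle and hypoxia genes each reach 75% higher. The shares include genes tested only through libraries with belinostat, without which 70% of synaptic vesicle genes were higher.

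The targets of the drug and their partners moved in different directions. Of the zinc-dependent deacetylases, HDAC3 had 215 and 190.2 CPM with belinostat, against 68.5 and 64.7 CPM with DMSO (log2 fold change 1.61, SE 0.12, adjusted p = 2.90e-07), HDAC5 53.1 and 46.6 CPM with belinostat, against 19.7 and 18.5 CPM with DMSO (log2 fold change 1.39, SE 0.15, adjusted p = 3.95e-06), and HDAC8 58.3 and 57.9 CPM with belinostat, against 18.9 and 32.3 CPM with DMSO (log2 fold change 1.18, SE 0.20, adjusted p = 2.04e-04). HDAC6, the tubulin deacetylase, changed by 0.64 ± 0.14, and HDAC7 by -0.44 ± 0.15, a call that did not hold against DMSO replicate 1 alone or without belinostat replicate 1. HDAC1, HDAC2, HDAC4, HDAC9 and HDAC10 were not called, at 0.02, -0.12, -0.06, -0.51 and 0.43 on the log2 scale, and HDAC11 did not pass the filter. HDAC4 was called higher, at 0.27, against DMSO replicate 1 alone. In the NuRD complex, which joins HDAC1 and HDAC2 to a chromatin remodeler, 8 of 12 members fell, among them MBD3, which had 47.5 and 39.5 CPM with belinostat, against 109 and 93.8 CPM with DMSO (log2 fold change -1.22, SE 0.14, adjusted p = 8.40e-06), CDK2AP1 (-1.54 ± 0.17) and the histone-binding subunit RBBP4 (-1.05 ± 0.14). The remodeler CHD4 rose, with 81.8 and 84.5 CPM with belinostat, against 40.4 and 41 CPM with DMSO (log2 fold change 1.03, SE 0.12, adjusted p = 1.18e-05), and so did GATAD2B (0.71 ± 0.14). SWI/SNF subunits fell in 12 of 26 cases and rose in 6 (3 when either belinostat library was left out). SMARCB1, a core subunit, had 7.04 and 10.2 CPM with belinostat, against 41.1 and 34.8 CPM with DMSO (log2 fold change -2.17, SE 0.20, adjusted p = 1.44e-06), while the subunit variants SMARCD3 and DPF3 changed by 1.52 ± 0.24 and 1.35 ± 0.24.

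Most histone demethylases rose. Of 21 tested, 12 rose (57.1%) and 6 fell, against 8 and 10 of 28 histone methyltransferases (the difference between these lists was not tested). The demethylases higher numbered 7 when either belinostat library was left out, and the methyltransferases higher 5 when either belinostat library was left out and 14 against DMSO replicate 1 alone. KDM5B, which removes methyl groups from lysine 4 of histone H3, had 177 and 202 CPM in the belinostat libraries, against 77.1 and 81.5 CPM in the DMSO libraries (log2 fold change 1.26, SE 0.12, adjusted p = 1.87e-06), with a change of 1.29 against DMSO replicate 1 alone and 1.21 against DMSO replicate 2 alone. KDM4B had 268 and 243 CPM with belinostat, against 73.1 and 109.6 CPM with DMSO (log2 fold change 1.48, SE 0.16, adjusted p = 5.90e-06) and KDM7A changed by 1.40 ± 0.16. Those that fell included RIOX2 (-1.69 ± 0.17), a ribosomal oxygenase, and PHF2 (-1.41 ± 0.21). Histone chaperones, which bring histones to DNA, fell in 16 of 24 cases and rose in 5 (2 and 3 without belinostat replicates 1 and 2). CHAF1B and ASF1B, which serve replication, changed by -1.50 ± 0.17 and -1.53 ± 0.17, whereas UBN1 of the replication-independent HIRA complex changed by 1.00 ± 0.13. Of 30 Polycomb genes 9 rose and 8 fell, with PHF19, a partner protein, at -3.32 ± 0.16. Of 14 genes of DNA methylation 2 rose (1 when either belinostat library was left out, and 3 and 5 against DMSO replicates 2 and 1 alone) and 6 fell, with UHRF1 at -2.30 ± 0.13. Of 21 genes of acetyl-lysine readers and P-TEFb 6 rose and 7 fell, with the 7SK capping enzyme MEPCE at -2.58 ± 0.17.

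In the other direction, the genes of cilia rose. The primary cilium is an antenna that most cells grow when they leave the cell cycle, built by intraflagellar transport and serviced by the BBSome. Of 49 tested genes of these complexes and the transition zone, 36 rose (73.5%) and 2 fell (4 against DMSO replicate 1 alone), with a median of 0.60 (0.75 and 0.60 against DMSO replicates 1 and 2 alone), and all of them passed the filter without the belinostat libraries. Without belinostat replicate 1, 22 were higher. WDR19 (IFT144), a subunit of the inward-moving IFT-A train, had 122 and 121 CPM in the belinostat libraries, against 19.1 and 30.2 CPM in the DMSO libraries (log2 fold change 2.30, SE 0.18, adjusted p = 3.84e-07), with a change of 2.67 against DMSO replicate 1 alone and 2.01 against DMSO replicate 2 alone. IFT80 of the outward-moving IFT-B train had 134 and 126 CPM with belinostat, against 43.6 and 50.7 CPM with DMSO (log2 fold change 1.46, SE 0.13, adjusted p = 7.67e-07). BBS9 of the BBSome had 43.4 and 46.9 CPM with belinostat, against 12.9 and 12.4 CPM with DMSO (log2 fold change 1.83, SE 0.15, adjusted p = 5.09e-07). TMEM67 of the transition zone changed by 1.65 ± 0.16. The genes that fell were DYNC2I2, an intermediate chain of the dynein that hauls IFT trains, with 24.2 and 28.8 CPM with belinostat, against 139 and 122 CPM with DMSO (log2 fold change -2.31, SE 0.14, adjusted p = 6.29e-08), and B9D2 (-1.31 ± 0.29), while DYNC2I1, the partner chain of DYNC2I2, changed by 1.36 ± 0.13. IFT88, often used to mark the train, was not called (0.21 on the log2 scale).

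Motile cilia genes, which U87 cells were not labelled as using, gave 24 higher and 1 lower of 34 tested, out of 58 in the table. Of those tested, 11 passed the filter only through libraries with belinostat and so had to be high with belinostat to be tested at all. Of the other 23, 14 rose and 1 fell. DNAH7, an inner arm dynein heavy chain, had 68.5 and 69.9 CPM in the belinostat libraries, against 3.94 and 4.97 CPM in the DMSO libraries. Its DMSO levels were low (log2 fold change 3.95, SE 0.20, adjusted p = 1.94e-08). DNAH6, another inner arm heavy chain, had 15 and 16.6 CPM with belinostat, against 2.02 and 2.24 CPM with DMSO (log2 fold change 2.88, SE 0.30, adjusted p = 3.44e-06). DNAAF3, which assembles dynein arms, changed by 2.82 ± 0.29. RFX2, a transcription factor of ciliary genes, had 27.1 and 27.4 CPM with belinostat, against 8.59 and 10.3 CPM with DMSO (log2 fold change 1.52, SE 0.18, adjusted p = 8.47e-06). The 5 epithelial markers summed to 2.23 and 2.2 CPM in the belinostat libraries, against 0.909 and 0.975 CPM in the DMSO libraries, and their part in the result was not tested.

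Most tested synaptic genes rose, while many other genes of the list and several markers of neuronal identity were too low to test. Of 51 genes of synaptic vesicles and exocytosis in the table, 28 were tested. Of those tested 21 rose (75%) and 4 fell, and 8 had passed the filter only through libraries with belinostat. The other 20 gave 14 higher (70%) and 4 lower. Against DMSO replicate 1 alone 21 were higher and against DMSO replicate 2 alone 21, and the genes lower numbered 2 and 1 without belinostat replicates 1 and 2. SNAP25, a membrane fusion protein of the axon terminal, had 110.4 and 130.2 CPM in the belinostat libraries, against 35.9 and 55.1 CPM in the DMSO libraries (log2 fold change 1.40, SE 0.18, adjusted p = 1.77e-05). RIMS3, a protein of the release site, had 255 and 232 CPM with belinostat, against 89 and 76.5 CPM with DMSO (log2 fold change 1.56, SE 0.13, adjusted p = 4.51e-07). VAMP1, the vesicle partner of SNAP25, had 60.2 and 56.9 CPM with belinostat, against 8.59 and 17 CPM with DMSO (log2 fold change 2.19, SE 0.26, adjusted p = 1.26e-05). CADPS2, a priming factor for dense-core vesicles, went the other way, with 17 and 15.1 CPM with belinostat, against 38 and 29.6 CPM with DMSO (log2 fold change -1.07, SE 0.17, adjusted p = 1.41e-04). Beside these, the pan-neuronal markers RBFOX3, STMN2 and ELAVL3 did not pass the filter, TUBB3 was not called (-0.20 on the log2 scale), and MAP2, a microtubule protein of dendrites, had 27.1 and 19.98 CPM with belinostat, against 4.04 and 3.7 CPM with DMSO (log2 fold change 2.61, SE 0.23, adjusted p = 8.68e-07). The summed level of the 8 neuronal markers was 215 and 221 CPM in the belinostat libraries, against 57.5 and 75.2 CPM in the DMSO libraries. Of the intermediate filament genes, nestin (NES), a marker of neural progenitors, had 38.5 and 26.3 CPM with belinostat, against 4.95 and 5.75 CPM with DMSO (log2 fold change 2.60, SE 0.21, adjusted p = 4.57e-07).

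Channels and receptors were less uniform. Of 72 voltage-gated channel genes in the table, 26 were tested. Of those tested 13 rose and 4 fell, with 5 tested only through libraries with belinostat. The other 21 gave 9 higher and 4 lower. KCNQ3, a subunit of the M-current channel, had 12.3 and 14.9 CPM with belinostat, against 2.53 and 3.7 CPM with DMSO (log2 fold change 2.11, SE 0.27, adjusted p = 2.37e-05), and KCNAB2, a cytoplasmic subunit, 18.7 and 16.4 CPM with belinostat, against 4.24 and 5.75 CPM with DMSO (log2 fold change 1.81, SE 0.22, adjusted p = 1.61e-05). The auxiliary calcium channel subunit CACNA2D1 had 7.86 and 8.47 CPM with belinostat, against 54.7 and 48.1 CPM with DMSO (log2 fold change -2.66, SE 0.17, adjusted p = 7.76e-08) and the calcium-activated potassium channel KCNMA1, known to be abundant in glioma, 55.5 and 60.8 CPM with belinostat, against 107 and 158 CPM with DMSO (log2 fold change -1.19, SE 0.17, adjusted p = 4.69e-05). Of 48 postsynaptic scaffold and adhesion genes in the table, 24 were tested, with 15 higher and 4 lower. The 20 that did not depend on belinostat libraries to pass the filter gave 11 higher and 4 lower. Among them the adhesion protein CADM4 changed by 3.01 ± 0.25, the scaffold DLG4 (PSD-95) by 1.34 ± 0.17 and HOMER3 by -1.33 ± 0.16. Glial genes were sparse: 7 of 11 tested astrocyte genes rose, including clusterin (CLU, 1.32 ± 0.14) and CHI3L1 (3.71 ± 0.41), and 5 of 9 oligodendrocyte genes fell (3 against DMSO replicate 2 alone). Of the astrocyte genes 3 were tested only through libraries with belinostat, and 4 of the other 8 rose.

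Genes of the hypoxia response, which cells switch on through HIF factors when oxygen is short, rose in 18 of 24 tested cases (75%) and fell in 2. The median was 0.77, or 0.80 against DMSO replicate 1 alone and 0.72 against DMSO replicate 2 alone, and 4 were lower against DMSO replicate 1 alone. HILPDA, a lipid droplet protein that is a HIF target, had 632 and 639 CPM in the belinostat libraries, against 116 and 107 CPM in the DMSO libraries. Its log2 fold change was 2.51 (SE 0.12, adjusted p = 1.14e-08). ANGPTL4, an inhibitor of lipoprotein lipase, had 155 and 100.4 CPM with belinostat, against 26 and 23 CPM with DMSO (log2 fold change 2.39, SE 0.18, adjusted p = 3.05e-07). NDRG1 had 3662 and 3162 CPM with belinostat, against 1223 and 999 CPM with DMSO (log2 fold change 1.62, SE 0.15, adjusted p = 1.22e-06). Adrenomedullin (ADM), a vasodilator peptide, changed by 1.26 ± 0.12. The RNA of the factors HIF1A and EPAS1, which were named after their values were seen, rose too, and no protein was measured. HIF1A had 1506 and 1536 CPM with belinostat, against 828 and 675 CPM with DMSO (log2 fold change 1.02, SE 0.13, adjusted p = 2.81e-05) and EPAS1 (HIF2A) 1204 and 936 CPM with belinostat, against 554 and 423 CPM with DMSO (log2 fold change 1.13, SE 0.16, adjusted p = 4.40e-05). Carbonic anhydrase 9 (CA9), among the best known HIF targets, had 137 and 139 CPM with belinostat, against 386 and 312 CPM with DMSO (log2 fold change -1.34, SE 0.13, adjusted p = 2.36e-06) and so fell, as did lysyl oxidase (LOX, -0.51 ± 0.13). The glycolysis list was split, with 8 of 24 higher and 8 lower: the glucose transporter SLC2A3 changed by 1.21 ± 0.13, and the enzymes TPI1 and PFKL by -1.08 ± 0.16 and -1.07 ± 0.13.

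Autophagy and lysosome genes leaned upward. Autophagy delivers cell contents to the lysosome, where acid hydrolases break them down. Of 35 tested autophagy genes 17 rose (48.6%) and 2 fell, with a median of 0.36 (0.22 and 0.45 against DMSO replicates 1 and 2 alone). ULK1, the kinase that starts the process, had 105 and 104 CPM in the belinostat libraries, against 33.2 and 44.6 CPM in the DMSO libraries (log2 fold change 1.43, SE 0.16, adjusted p = 5.55e-06). ATG2A, which feeds lipid to the growing membrane, had 127 and 113 CPM with belinostat, against 36.2 and 49.3 CPM with DMSO (log2 fold change 1.49, SE 0.15, adjusted p = 2.98e-06), and GABARAPL2, which tags that membrane, changed by 1.21 ± 0.16. PIK3C3, the lipid kinase of the pathway, changed by 1.02 ± 0.12 and the transcription factor MITF by 1.40 ± 0.18. The cargo receptor SQSTM1 (p62) had 171 and 169.5 CPM with belinostat, against 288 and 226 CPM with DMSO (log2 fold change -0.59, SE 0.13, adjusted p = 0.00168) and fell, and MAP1LC3B and BECN1 were not called (0.36 and -0.04 on the log2 scale). The autophagy genes lower numbered 4 against DMSO replicate 1 alone and 1 without belinostat replicate 2. Lysosomal genes rose in 16 of 41 cases and fell in 7, with 9 and 10 higher when belinostat replicates 1 and 2 were left out in turn. Prosaposin (PSAP), the precursor of sphingolipid activators, had 1528 and 1228 CPM in the belinostat libraries, against 496 and 467 CPM in the DMSO libraries (log2 fold change 1.52, SE 0.14, adjusted p = 1.07e-06). The cholesterol exporter NPC1 changed by 1.06 ± 0.12 and lysosomal acid lipase (LIPA) by 1.26 ± 0.15, whereas the hydrolases ARSB and CTSS (cathepsin S) changed by -1.81 ± 0.16 and -1.49 ± 0.13. Subunits of the V-ATPase, the pump that acidifies lysosomes, rose in 9 of 18 cases (4 without belinostat replicate 1), with ATP6V0A1 at 103 and 84.3 CPM with belinostat, against 28.3 and 34.7 CPM with DMSO (log2 fold change 1.57, SE 0.16, adjusted p = 2.47e-06). Its paralogue ATP6V0A2 changed by -0.95 ± 0.14.

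Energy and lipid genes moved in both directions. Fatty acid oxidation and peroxisome genes rose in 15 of 35 cases and fell in 5. ACADVL, the long-chain dehydrogenase, had 677 and 759 CPM with belinostat, against 277 and 424 CPM with DMSO (log2 fold change 1.03, SE 0.17, adjusted p = 1.52e-04), and CPT1A, which lets fatty acids into mitochondria, changed by -0.85 ± 0.18. Of 37 complex I genes 5 rose and 11 fell, and of 38 genes of the other respiratory complexes 10 rose and 8 fell, shares near or below those over all genes. The counts for those other complexes depended on the library, with 17 higher against DMSO replicate 2 alone, 17 lower against DMSO replicate 1 alone, and 3 and 4 higher when belinostat replicates 1 and 2 were left out in turn, and the complex I genes higher numbered 3 without belinostat replicate 1. In the TCA cycle, IDH1, the cytosolic isocitrate dehydrogenase, had 143 and 133 CPM with belinostat, against 39.7 and 29.8 CPM with DMSO (log2 fold change 1.99, SE 0.15, adjusted p = 2.06e-07) and pyruvate carboxylase (PC) changed by 1.84 ± 0.17. The aldo-keto reductases, which reduce aldehydes and steroids, include near-identical paralogues. AKR1C3 had 18.9 and 16.1 CPM with belinostat, against 4.24 and 3.9 CPM with DMSO, and AKR1B10 had 25.6 and 19.3 CPM with belinostat, against 3.23 and 5.07 CPM with DMSO, values that the division of shared reads can affect. In the NRF2 list, which holds glutathione and thioredoxin genes, 14 of 34 fell and 6 rose. KEAP1, the adaptor that marks NRF2 for destruction, had 10.1 and 9.31 CPM with belinostat, against 66 and 50.3 CPM with DMSO (log2 fold change -2.57, SE 0.17, adjusted p = 1.01e-07), and the glutathione synthesis enzyme GCLC 105 and 80.4 CPM with belinostat, against 31.2 and 29.4 CPM with DMSO (log2 fold change 1.62, SE 0.15, adjusted p = 1.07e-06).

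Metallothioneins, small proteins that bind zinc and copper, gave calls in opposite directions. Of 14 tested genes of a list that also holds zinc control genes, 5 rose and 4 fell, with a median of 0.03. The zinc-responsive element (here TGCGCNC or TGCACNC on either strand) was found in 38.6% of the 10455 promoters and in 4 of 9 promoters of this list (44.4%). The promoters of MT1X and MT2A are shown because these genes gave the largest calls of the list in each direction, and they held 4 and 8 matches, in capitals.
MT1X (chr16:56682220-56682519, plus strand): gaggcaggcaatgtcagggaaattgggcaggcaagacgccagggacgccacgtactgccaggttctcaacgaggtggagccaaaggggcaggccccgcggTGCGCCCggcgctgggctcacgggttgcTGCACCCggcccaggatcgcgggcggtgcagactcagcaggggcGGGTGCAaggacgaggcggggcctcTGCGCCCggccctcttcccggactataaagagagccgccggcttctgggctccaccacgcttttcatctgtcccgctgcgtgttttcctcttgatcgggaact
MT2A (chr16:56608334-56608633, plus strand): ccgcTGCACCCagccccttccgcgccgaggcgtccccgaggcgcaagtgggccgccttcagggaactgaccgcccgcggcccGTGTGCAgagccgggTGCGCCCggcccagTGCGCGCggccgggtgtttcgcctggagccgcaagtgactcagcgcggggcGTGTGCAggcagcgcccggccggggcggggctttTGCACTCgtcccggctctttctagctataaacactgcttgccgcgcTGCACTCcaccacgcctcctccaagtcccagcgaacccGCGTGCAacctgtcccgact
MT1X had 246 and 169 CPM in the belinostat libraries, against 21.8 and 16.6 CPM in the DMSO libraries (log2 fold change 3.44, SE 0.19, adjusted p = 2.78e-08), with a change of 3.26 against DMSO replicate 1 alone and 3.66 against DMSO replicate 2 alone. MT2A had 261 and 208 CPM with belinostat, against 612 and 375 CPM with DMSO (log2 fold change -1.07, SE 0.19, adjusted p = 3.16e-04), with a change of -1.38 against DMSO replicate 1 alone and -0.67 against DMSO replicate 2 alone. These genes are near copies of each other, so reads may have been assigned between them or dropped, and their values are uncertain to that extent.

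Cytoskeletal families moved in both directions. Tubulins and microtubule proteins rose in 10 of 29 cases and fell in 9, but their share of all reads fell. Of these genes 4 were tested only through libraries with belinostat, and the other 25 gave 6 higher (24%) and 9 lower (36%). TUBA1B had 147 and 170.2 CPM in the belinostat libraries, against 1412 and 1036 CPM in the DMSO libraries (log2 fold change -2.95, SE 0.16, adjusted p = 2.81e-08), with a change of -3.16 against DMSO replicate 1 alone and -2.71 against DMSO replicate 2 alone. TUBA1C and TUBB6 changed by -2.84 ± 0.16 and -2.29 ± 0.15, TUBB4B by -2.23 ± 0.15 and the destabilising protein stathmin (STMN1) by -2.17 ± 0.14. The share was 0.306% and 0.292% of reads with belinostat, against 0.805% and 0.646% with DMSO. Tubulin genes are near-identical in their coding parts, and the division of reads among them is uncertain. TUBG2 and TUBE1, tubulins of the centrosome, changed by 1.93 ± 0.19 and 1.17 ± 0.16. Actomyosin genes fell in 16 of 34 cases and rose in 9 (5 without belinostat replicate 1). Within the tropomyosins, which coat actin filaments, TPM1 had 388 and 428 CPM with belinostat, against 142 and 136 CPM with DMSO (log2 fold change 1.55, SE 0.12, adjusted p = 3.02e-07) and TPM4 413 and 458 CPM with belinostat, against 1368 and 983 CPM with DMSO (log2 fold change -1.43, SE 0.15, adjusted p = 4.85e-06). Profilin (PFN1), which feeds actin monomers to growing filaments, changed by -1.74 ± 0.19, and calponin 3 (CNN3) by 1.19 ± 0.15. The nuclear lamina genes LMNB1 and LMNB2 changed by -2.64 ± 0.17 and -1.57 ± 0.13.

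Collagens showed the same kind of division. Of 23 tested, 11 rose and 5 fell, with 4 tested only through libraries with belinostat, and 7 of the other 19 rose. COL4A5, a basement membrane chain, had 97 and 96.7 CPM with belinostat, against 17.6 and 21.2 CPM with DMSO (log2 fold change 2.32, SE 0.15, adjusted p = 9.09e-08), and COL3A1, a fibril chain, 13.4 and 17.8 CPM with belinostat, against 4.04 and 3.51 CPM with DMSO (log2 fold change 2.03, SE 0.26, adjusted p = 1.93e-05). Among those that fell, COL6A1 had 959 and 1044 CPM with belinostat, against 1703 and 1606 CPM with DMSO (log2 fold change -0.72, SE 0.13, adjusted p = 3.22e-04), COL6A2 changed by -0.65 ± 0.13, and COL4A2 had 2.7 and 4.74 CPM with belinostat, against 12.2 and 10.7 CPM with DMSO. COL7A1, the anchoring fibril collagen, rose, with 2524 and 2868 CPM with belinostat, against 972 and 2107 CPM with DMSO (log2 fold change 0.81, SE 0.26, adjusted p = 0.0163), a call lost when either belinostat library was left out. LAMA5, a laminin chain, had 36.8 and 22.9 CPM with belinostat, against 2.32 and 3.12 CPM with DMSO (log2 fold change 3.46, SE 0.29, adjusted p = 5.30e-07). Targets of YAP and TEAD rose in 10 of 20 cases and fell in 6. CCN2, the connective tissue growth factor, had 168 and 199.5 CPM with belinostat, against 34 and 32.6 CPM with DMSO (log2 fold change 2.46, SE 0.13, adjusted p = 2.69e-08), and the receptor AXL changed by -1.04 ± 0.15. In the TGF-beta list the ligand TGFB2 changed by 2.03 ± 0.16, the receptors TGFBR1 and TGFBR2 by 1.66 ± 0.17 and 1.26 ± 0.13, and the signal carrier SMAD3 by 1.65 ± 0.13, while the list as a whole had 10 of 45 higher and 12 lower. In the urokinase system, which cleaves matrix, PLAU changed by -1.85 ± 0.13 and its receptor PLAUR by -2.23 ± 0.15.

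Growth signalling genes gave named changes in both directions. In the MAPK feedback list, 12 of 25 fell and 7 rose. FOSL1, an AP-1 factor, had 49.3 and 56.2 CPM with belinostat, against 193 and 174 CPM with DMSO (log2 fold change -1.80, SE 0.13, adjusted p = 2.15e-07), and the receptor inhibitors SPRY4 and SPRY2 changed by -1.60 ± 0.15 and -1.50 ± 0.15. MYC had 83.4 and 85 CPM with belinostat, against 169 and 186 CPM with DMSO (log2 fold change -1.07, SE 0.12, adjusted p = 8.79e-06), and its antagonist MXI1 had 104 and 117 CPM with belinostat, against 55.4 and 39.7 CPM with DMSO (log2 fold change 1.22, SE 0.16, adjusted p = 2.31e-05). Among receptor tyrosine kinases the ephrin receptors EPHA4 and EPHA3 changed by 1.93 ± 0.15 and 2.35 ± 0.26 and CSF1R by -2.53 ± 0.23. WNT7B and WNT5A, secreted ligands, changed by -2.24 ± 0.19 and -1.44 ± 0.16, and PORCN, which lipidates such ligands, by 1.65 ± 0.14. The Notch ligand JAG1 changed by 1.53 ± 0.13 and the receptors NOTCH1 and NOTCH3 by -1.52 ± 0.13 and -1.45 ± 0.13. In the clock, CLOCK changed by -1.36 ± 0.14 and PER1 by 1.63 ± 0.20.

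Interferon-stimulated genes, which cells use against viruses, fell in 20 of 39 tested cases (51.3%) and rose in 8. Without belinostat replicate 1, 12 were lower and 5 higher, and without belinostat replicate 2, 5 were higher. The median was -0.66, or -0.56 against DMSO replicate 1 alone and -0.37 against DMSO replicate 2 alone. OAS3, a sensor of double-stranded RNA, had 1.53 and 1.69 CPM in the belinostat libraries, against 15.9 and 10.1 CPM in the DMSO libraries (log2 fold change -3.01, SE 0.33, adjusted p = 5.11e-06). DTX3L, a ubiquitin ligase, had 15.5 and 11.7 CPM with belinostat, against 51.6 and 35.8 CPM with DMSO (log2 fold change -1.67, SE 0.20, adjusted p = 1.09e-05) and TRIM22 changed by -1.51 ± 0.17. STAT2, which carries the interferon signal to the nucleus, rose, with 242 and 259.8 CPM with belinostat, against 67.4 and 95.9 CPM with DMSO (log2 fold change 1.62, SE 0.16, adjusted p = 2.07e-06). In antigen presentation, 11 of 30 genes fell and 6 rose (3 without belinostat replicate 1). The peptide trimmer ERAP1 had 32 and 36.1 CPM with belinostat, against 102 and 95.3 CPM with DMSO (log2 fold change -1.54, SE 0.13, adjusted p = 5.71e-07), the loading factor TAPBP changed by -1.09 ± 0.15, and the immunoproteasome subunit PSMB8 by -1.51 ± 0.20, while HLA-DMA and HLA-DPB1 of class II changed by 1.07 ± 0.23 and 0.93 ± 0.23. HLA genes are polymorphic and near-identical to each other, which limits read assignment.

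Of 36 cytokine and NF-kB genes 11 rose and 14 fell. IL11, a cytokine of the IL-6 family, had 21 and 29.3 CPM in the belinostat libraries, against 317 and 270.0 CPM in the DMSO libraries (log2 fold change -3.56, SE 0.17, adjusted p = 1.18e-08). Its fall was close in size to that of CSF3. IL1B, an inflammatory cytokine, had 76.5 and 79.4 CPM with belinostat, against 253 and 212 CPM with DMSO (log2 fold change -1.58, SE 0.13, adjusted p = 4.30e-07), and IL1A, encoded beside it, 17.6 and 16.1 CPM with belinostat, against 2.42 and 2.34 CPM with DMSO (log2 fold change 2.82, SE 0.24, adjusted p = 7.26e-07), so that the pair moved in opposite directions. CCL20, a chemokine, had 40.6 and 33.9 CPM with belinostat, against 2.93 and 2.73 CPM with DMSO (log2 fold change 3.72, SE 0.22, adjusted p = 5.51e-08). The NF-kB subunit NFKB1 changed by -1.77 ± 0.15 and BCL3, a nuclear partner of the p50 and p52 subunits, by 1.70 ± 0.17. The NKG2D ligands MICA and MICB, stress signals read by natural killer cells and close paralogues, changed by 1.64 ± 0.14 and -1.89 ± 0.32.

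Genes of cell death moved in both directions. In the BCL2 family 4 of 17 rose and 4 fell (7 lower against DMSO replicate 1 alone). BMF, a BH3-only protein that promotes death, had 23.1 and 15.8 CPM in the belinostat libraries, against 1.72 and 1.85 CPM in the DMSO libraries (log2 fold change 3.44, SE 0.29, adjusted p = 6.58e-07), with a change of 3.51 against DMSO replicate 1 alone and 3.40 against DMSO replicate 2 alone. BCL2L11 (BIM), another BH3-only protein, changed by 1.18 ± 0.22. BCL2, which opposes them, had 3.99 and 3.73 CPM with belinostat, against 10.9 and 9.45 CPM with DMSO (log2 fold change -1.39, SE 0.24, adjusted p = 2.60e-04), and MCL1 266 and 311 CPM with belinostat, against 433 and 459 CPM with DMSO (log2 fold change -0.63, SE 0.13, adjusted p = 9.13e-04). BCL2L1 (BCL-XL) and BAX were not called (-0.07 and -0.38 on the log2 scale). Death receptor, caspase and IAP genes rose in 7 of 31 cases (2 and 3 without belinostat replicates 1 and 2) and fell in 14, among them the inhibitors of apoptosis XIAP, with 31.4 and 32.2 CPM with belinostat, against 115 and 85.4 CPM with DMSO (log2 fold change -1.65, SE 0.15, adjusted p = 1.22e-06), BIRC2 (-1.25 ± 0.12) and survivin (BIRC5, -2.58 ± 0.21, which also serves mitosis), and the receptor TNFRSF12A (-2.59 ± 0.16).

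Direction went with the level of a gene. Levels were taken from the 2 AsiDNA libraries, which are not part of the comparison. Of 226 genes over 512 CPM there, 139 (61.5%) fell and 30 (13.3%) rose, and of 1473 genes of 128 to 512 CPM 802 (54.4%) fell and 225 (15.3%; 146 without belinostat replicate 1) rose. Between 8 and 32 CPM the shares were 27.7% lower and 31.1% higher of 3640 genes. Between 0.5 and 2 CPM they were 5.29% and 35.5% of 2137, of which 752 passed the filter only through libraries with belinostat, and 8.16% and 28% of the other 1385. Of 713 genes under 0.5 CPM, 694 passed the filter only through libraries with belinostat, so that their 459 calls higher say little. Over all levels 1446 genes passed in that way, with 827 called higher and 0 lower, while the other 13295 genes gave 3568 higher (26.8%) and 4071 lower (30.6%), with a median of -0.04. Without belinostat replicate 1 the count higher over all genes was 2759. The fall of highly expressed genes was present against each DMSO library alone, with 164 and 133 of the 226 lower.

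By annotated class, protein-coding genes were near balance, with 3387 of 11999 higher (28.2%; 2186 without belinostat replicate 1) and 3825 lower (31.9%). Of 600 long intergenic noncoding genes 257 (42.8%) rose (158 when either belinostat library was left out) and 56 (9.33%) fell, 198 having passed only through libraries with belinostat, and the other 402 gave 135 higher (33.6%) and 56 lower (13.9%). Their share of all reads was 12.8% and 14% in the belinostat libraries, against 1.31% and 3.38% in the DMSO libraries, most of it MALAT1 and NEAT1. The median log2 fold change was 0.80, but it was 1.22 against DMSO replicate 1 alone and 0.59 against DMSO replicate 2 alone. Antisense genes gave 261 higher and 44 lower of 650, of which 215 passed only through libraries with belinostat, and the other 435 gave 144 higher and 44 lower. Sense-intronic genes gave 96 higher and 6 lower of 252, of which 105 passed in that way, and the other 147 gave 56 higher and 6 lower. The antisense count higher was 155 and the count lower 19 without belinostat replicate 1, and the sense-intronic count higher was 40 and 41 without belinostat replicates 1 and 2, 150 against DMSO replicate 1 alone and 65 against DMSO replicate 2 alone. Host genes of microRNAs rose in 16 of 28 cases, with 5 tested only through libraries with belinostat, and the other 23 gave 12 higher and 2 lower. MIR503HG had 14.5 and 17.4 CPM with belinostat, against 1.52 and 4.48 CPM with DMSO (log2 fold change 2.40, SE 0.36, adjusted p = 8.54e-05) and MIR181A1HG 26.7 and 27.9 CPM with belinostat, against 4.44 and 7.02 CPM with DMSO (log2 fold change 2.25, SE 0.23, adjusted p = 2.60e-06), while MIR17HG, which hosts a growth-promoting cluster, changed by -0.79 ± 0.29, a call lost without belinostat replicate 1. The intergenic LINC00461, a neural transcript, had 43.5 and 58.6 CPM with belinostat, against 7.07 and 11.1 CPM with DMSO (log2 fold change 2.48, SE 0.21, adjusted p = 7.76e-07). An antisense gene such as ZMIZ1-AS1, with 66.8 and 69.6 CPM with belinostat, against 5.96 and 11.6 CPM with DMSO, cannot be told from reads of its partner without the strand setting.

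Small nuclear and nucleolar RNA genes fell more often than they rose. Of 33 snRNA genes 17 fell and 4 rose, with a median of -1.36, and of 53 snoRNA genes 17 fell and 3 rose, with a median of -0.79. Without belinostat replicate 1 the counts lower were 9 for snRNA genes and 5 for snoRNA genes, and without either belinostat library at most 1 gene of each class was higher. These genes exist in many near copies, and total RNA libraries recover such short RNAs unevenly. RN7SL2, a gene of the signal recognition particle RNA, had 181 and 202 CPM in the belinostat libraries, against 619 and 377 CPM in the DMSO libraries (log2 fold change -1.38, SE 0.19, adjusted p = 3.96e-05), with a change of -1.69 against DMSO replicate 1 alone and -0.98 against DMSO replicate 2 alone. SNORD3A, the U3 snoRNA, was called higher on the strength of 1 library, with 1307 and 4 reads in the belinostat libraries, against 17 and 10 reads in the DMSO libraries, so that its groups overlapped. Without belinostat replicate 1 its change was -1.05, not called.

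**Figure D4:**
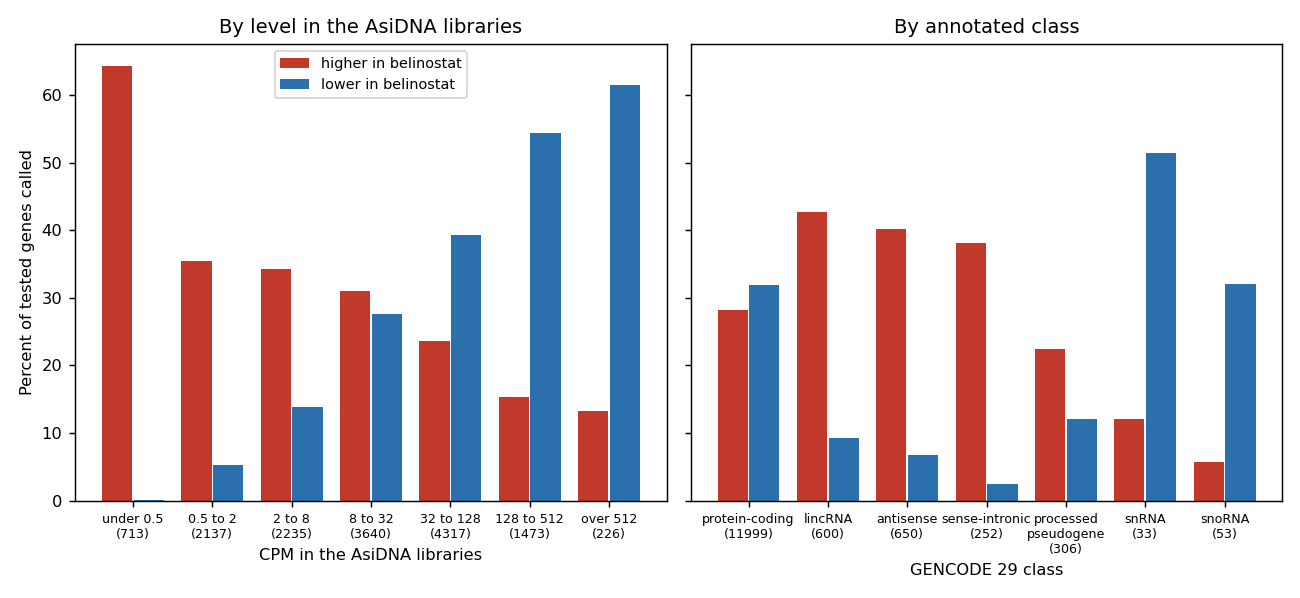
Share of tested genes called higher (red) and lower (blue) with belinostat against DMSO, by CPM in the AsiDNA libraries (left) and by GENCODE 29 class (right), with the number of tested genes in brackets. From 8 to 32 CPM up to over 512 CPM the share lower climbs from 27.7% to 61.5%, the classes under 2 CPM hold many genes tested only through libraries with belinostat, and snRNA genes show 51.5% lower against 9.33% for lincRNA genes.

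Gene length had a smaller relation to direction. Of 966 protein-coding genes spanning under 5 kb, 354 (36.6%) fell and 195 (20.2%) rose, with a median of -0.22. Of 779 genes spanning 200 to 500 kb, 206 (26.4%) fell and 298 (38.3%) rose, with a median of 0.20. The 164 genes spanning over 500 kb went no further, with 42 (25.6%) lower, 63 (38.4%) higher and a median of 0.15. Against DMSO replicate 1 alone these medians were -0.29, 0.21 and 0.15, and against DMSO replicate 2 alone -0.14, 0.19 and 0.15. Genes of the nuclear chromosomes were called in like shares, the share higher running from 27.3% on chromosomes 4 and X to 34.3% on chromosome 15.

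The direction of some genes depended on the DMSO library. Of all tested genes, 44 were higher against DMSO replicate 1 alone and lower against DMSO replicate 2 alone, and 20 the reverse. ATP6V1FNB had 169 and 162 reads in the belinostat libraries, against 113 and 502 reads in the DMSO libraries, with a change of 1.03 against DMSO replicate 1 alone and -1.07 against DMSO replicate 2 alone. NBEAL2 had 215 and 129 reads in the belinostat libraries, against 125 and 383 reads in the DMSO libraries, with a change of 0.91 against DMSO replicate 1 alone and -0.66 against DMSO replicate 2 alone. In both genes the belinostat libraries lay between the DMSO libraries, and neither gene was called with both DMSO libraries together.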

How the data were processed

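RNA from U87 cells was made into stranded, rRNA-depleted libraries, per the labels. The authors deposited raw read counts per gene, which are the unit used here. The submitters' processing notes name cutadapt 1.16, STAR 2.7.0, Subread, featureCounts 1.6.3 and GRCh38, without the strand setting or annotation release. Gene classes and coordinates are from GENCODE 29 on GRCh38, matched by gene identifier.

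Counts were fitted in edgeR 4.0.16 (limma 3.58.1, R 4.3.3) with group as the only term over all 8 libraries, which share an estimate of the spread with 4 residual degrees of freedom. Genes were filtered by filterByExpr, scaled by TMM, tested by the quasi-likelihood F-test and adjusted by Benjamini-Hochberg over all 14741 tested genes. A gene is called at an adjusted p under 0.05, and every p in the text is from this test, two-sided. SE is the log2 fold change divided by the square root of F. The fit was tested on simulated data. Totals were 6057394 to 9699637 counts per library, and counting error is only part of the spread.

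The members and lists were chosen with earlier results of these data known, and no set test was run. Genes named were the 12 largest rises and 12 largest falls called against each DMSO library and at a mean log2 CPM of at least 2. Those also had to have both belinostat libraries beyond both DMSO libraries. Also named were the 10 largest gains and 10 largest losses in CPM, the smallest adjusted p-values of each list in each direction, the deacetylases, genes that differ most between the DMSO libraries, and defining genes that were not called. CAD, GART, PAICS, COL7A1, HIF1A and EPAS1 were named after their values were seen. Promoters are from RefSeq (GRCh38.p14), which had one for 10455 tested genes. Alternatives were other scalings, filters, fold limits, DESeq2 1.42.0, fewer libraries, a replicate block and protein-coding genes alone. A few of these genes are left out of the text.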

Additional observations from a re-analysis of the deposited data

How the results depend on the processing

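With 2 libraries a group, the calls rest on a spread pooled over all 8 libraries. A fit of only the 4 libraries compared gave 3209 genes higher and 3734 lower, with a median log2 fold change of -0.02. Without the 10 most abundant genes the counts were 3924 and 4507. In both settings more genes were lower than higher, unlike in the main fit. The same was so with library sizes alone, no filter, DESeq2, protein-coding genes alone, and with either belinostat library left out. Which direction held more calls therefore depended on the setting. No gene called with both DMSO libraries was called in the opposite direction under any of the 16 alternatives. The stricter limits on adjusted p or fold change keep the same fold changes, so they could not reverse a call. The other alternatives share libraries with the main fit, so they are not independent of it. The counts of genes higher and lower were 2417 and 2035 in a test against a 1.5-fold change and 2578 and 1892 when at least 2-fold was asked. Leaving out each library in turn gave 2759 to 5153 genes higher and 3550 to 4701 lower. With library sizes alone the counts were 3589 and 4799, the median log2 fold change was -0.08 in place of 0.06, and 43 of 140 lists had more members higher than lower, against 67 with TMM. That number was 42 with no filter on low counts (30848 genes), and 44 to 73 when each library was left out. DESeq2 called 3516 higher and 3743 lower. Genes over 512 CPM that fell numbered 71 against a 1.5-fold change and 58 at 2-fold or more. Long intergenic noncoding genes higher numbered 158 without either belinostat library, and 158 to 313 over all libraries left out in turn. Of 254 genes named with values, 218 kept their call under every alternative. ATP6V1FNB was at 1.03 against DMSO replicate 1 alone and -1.07 against DMSO replicate 2 alone, HDAC4 at 0.27 and -0.32, and NBEAL2 at 0.91 and -0.66. SNORD3A was at -1.05 without belinostat replicate 1 and 6.74 without belinostat replicate 2. The cause of these shifts was not tested. Replicate numbers are shared between the groups. The correlation of deviations from the group means was 0.139 between belinostat and DMSO and -0.000734 and -0.00558 between belinostat and the AsiDNA groups. With 2 libraries a group these values cannot settle whether the numbers pair the libraries, and the labels do not say. With a replicate block 4366 genes were higher and 4010 lower.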

Other observations

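Kinesins, the motors that walk along microtubules, changed in both directions. Of 33 tested, 15 fell (45.5%) and 6 rose (3 without belinostat replicate 1). The mitotic kinesin KIF20A had 41.9 and 52.2 CPM with belinostat, against 254 and 213 CPM with DMSO (log2 fold change -2.32, SE 0.15, adjusted p = 6.80e-08), and KIF11, KIF23, KIF14 and KIF2C, which also serve the spindle or cytokinesis, changed by -1.62 ± 0.14, -1.54 ± 0.13, -1.55 ± 0.13 and -1.51 ± 0.12. KIF5A, a neuronal transport kinesin, had 84.6 and 87.6 CPM with belinostat, against 11.2 and 13.3 CPM with DMSO (log2 fold change 2.81, SE 0.16, adjusted p = 2.96e-08). KIF3A, the motor of outward intraflagellar transport, changed by 0.72 ± 0.13.

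Proteasome subunits fell in 17 of 32 cases (53.1%) and rose in 3 (1 when either belinostat library was left out and 5 without DMSO replicate 1), but the median differed between the DMSO libraries, at -0.50 against DMSO replicate 1 alone and -0.15 against DMSO replicate 2 alone. PSMB2 changed by -1.12 ± 0.14 and PSMC3 by -1.02 ± 0.13. PSMA2 was among the subunits that rose, at 0.79 ± 0.15. Of 11 tested HOX genes, 1 rose and 1 fell (0 to 1 and 0 to 2 over the libraries left out in turn), shares below those over all genes. Of these genes 4 were tested only through libraries with belinostat, and the other 7 gave 0 higher and 1 lower.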
